A study of Oryza sativa with 8 samples.

Results

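Lipid transfer proteins (LTPs) are small secreted plant proteins whose fold, held together by pairs of cysteines, encloses a cavity that takes up fatty acids, lysolipids and related molecules. They are known for carrying lipids to the cuticle and suberin layers of the cell wall, for their abundance in the outer layers of cereal seeds and for antimicrobial activity, on which ground they are counted as a class of pathogenesis-related proteins. A longer class (type 1) and a shorter class (type 2) are distinguished, and LTP genes of several plants are known to respond to abscisic acid (ABA), drought and salt.

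The rice LTPs described here are the probes whose gene carries a symbol or synonym beginning with LTP or nsLTP, with or without Os in front, in the RefSeq annotation of rice. In that annotation 6 genes met the rule, and 5 of them were measured, of 15636 genes in all, by 6 of the 17782 probes tested. They are LTP-2 (also nsLTP2; probe 2004), LTP110-A (also LTP110-B; probe 17753), LTP2-B (also LTPB-1; probes 11005 and 15442), LTP (also PAPI; probe 13708) and LTPL1 (probe 4960). The gene LTP2-A, which lies beside LTP110-A in the annotation, had no listed probe and is not analysed here. LTPL1 was taken in on its name alone. Its gene spans 9160 bp in the annotation, against 808 to 1237 bp for the other 5 genes, and the annotation used here gives it no function.

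The study used callus from the scutellum of the rice variety Nipponbare, grown for 30 d in medium with 10 µM of 2,4-D, a synthetic auxin. The treated callus was then kept for 3 d with 50 µM of ABA, which acts in drought responses and in ripening seeds, or with 50 µM of gibberellin (GA), which drives stem growth and starch release in seedlings. Each of 8 two-colour arrays carried treated and untreated callus, 4 arrays for each hormone. The treated sample was in the dye Cy3 on ABA arrays 20 and 24 and GA arrays 04 and 05, and in Cy5 on ABA arrays 19 and 23 and GA arrays 07 and 08. The labels do not say whether arrays held separate cultures or shared their untreated callus, so the p-values measure the spread between these arrays, which may be technical. The array numbers of the hormones do not overlap, so a batch of arrays and the hormone cannot be told apart.

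All values below are log2 of treated over untreated, with the deposited ratios taken as log10. That base is not stated, and every fold and log2 size below rests on it. Adjusted p-values come from limma fitted over all 17782 probes with a dye term, and a probe was called at an adjusted p under 0.05. Before any turning, pairs of arrays with opposite dyes had correlations of −0.605 to −0.505 for ABA and of −0.816 to −0.700 for GA, so the sign was turned wherever Cy3 held the treated callus. After turning, the correlation between arrays of different hormones was −0.276 to −0.0219 with the same dye and −0.398 to −0.320 with opposite dyes. The labels describe the ratio as treated over untreated, which the opposed arrays contradict, so the values were read as Cy5 over Cy3. Only the dye of each treated sample was taken from the labels. The correlations alone do not settle the sign for either hormone. The resulting direction is an assumption for both hormones, and every ABA or GA direction below rests on it. If the ratios were Cy3 over Cy5, the signs of both hormones would reverse together. Only a turn of the GA arrays alone was tried. The files hold ratios without intensities, so neither the level of any LTP nor the presence of defining markers of the scutellum could be checked. In such bulk samples fewer cells of a type and less RNA per cell cannot be told apart.

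LTP-2, a type 2 protein known from rice seeds, had the largest response of the 6 probes to both hormones, and in opposite directions. Under ABA it stood at 2.73 on array 20, 2.66 on array 24, 2.83 on array 19 and 2.69 on array 23. Under GA it stood at −2.53 on array 04, −2.41 on array 05, −2.23 on array 07 and −2.48 on array 08. Every ABA array was far above 0, every GA array was far below it, and the dye orientations of either hormone gave nearly the same level. LTP-2 thus rose 6.63-fold under ABA, by 2.73 ± 0.07 (SD, n = 4; adjusted p = 7.10e-10). It fell 5.33-fold under GA, at −2.41 ± 0.13 (SD, n = 4; adjusted p = 1.50e-09). The 95% interval ran from 2.62 to 2.83 for ABA and from −2.52 to −2.31 for GA. Among all probes tested its value held rank 16 from the top under ABA and rank 5 from the bottom under GA. Its dye term was 0.045 and did not pass (adjusted p = 0.294).

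LTP110-A rose under both hormones. LTP110 has been described as inhibiting growth of the rice blast fungus. The probe read 0.63 and 0.55 on ABA arrays 20 and 24 and 1.02 and 1.06 on ABA arrays 19 and 23. It read 0.92 and 0.97 on GA arrays 04 and 05 and 1.35 and 1.48 on GA arrays 07 and 08. All 8 arrays were above 0, and for each hormone both Cy5 arrays were above both Cy3 arrays. Averaged over orientations, LTP110-A rose by 0.81 ± 0.26 under ABA (SD, n = 4; 1.76-fold, adjusted p = 1.24e-07). Under GA it rose by 1.18 ± 0.28 (SD, n = 4; 2.27-fold, adjusted p = 9.37e-09). The dye term of this probe was 0.23 (adjusted p = 7.23e-04), against a hormone effect of 0.59 for ABA and 0.94 for GA in the Cy3 arrays alone, so the rise was present in either orientation. Of the probes tested 98.9% lay below it under ABA and 99.1% under GA.

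LTP2-B, a type 1 protein, was measured by a pair of probes that differed in size. Probe 11005 read 0.91, 0.75, 1.02 and 0.94 on ABA arrays 20, 24, 19 and 23. It read −0.30, −0.35, 0.050 and −0.27 on GA arrays 04, 05, 07 and 08. The ABA arrays all lay above the GA arrays, of which array 07 alone was above 0. By this probe LTP2-B rose by 0.90 ± 0.11 under ABA (SD, n = 4; 1.87-fold, adjusted p = 1.25e-06) and fell under GA (−0.22 ± 0.18, SD, n = 4; adjusted p = 0.00661). The fall under GA was −0.32 in the Cy3 arrays and −0.11 in the Cy5 arrays, and the latter did not pass on their own (adjusted p = 0.329).

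Probe 15442 of LTP2-B gave smaller values. It read 0.15, 0.085, 0.39 and 0.41 on ABA arrays 20, 24, 19 and 23, and −0.091, −0.10, 0.013 and 0.17 on GA arrays 04, 05, 07 and 08. The ABA arrays were all above 0, while the GA arrays lay on both sides of it. This probe rose by 0.26 ± 0.17 under ABA (SD, n = 4; adjusted p = 3.45e-04) and did not pass under GA (−0.0014, 95% interval −0.080 to 0.078, adjusted p = 0.979). Its dye term was 0.12 (adjusted p = 0.00646). Probe 11005 exceeded it on each of the 4 ABA arrays, by 0.64 ± 0.095 (SD, n = 4; exact sign-flip permutation test, two-sided p = 0.125, the smallest that 4 arrays allow). Under GA the difference was −0.22 ± 0.20 (SD, n = 4; exact permutation p = 0.25). The mean of both probes stood at 0.58 under ABA and −0.11 under GA, and passed for both (adjusted p = 7.45e-07 and 0.0137).

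LTP, whose synonym PAPI comes from an older name as a probable amylase and protease inhibitor, is the gene next to LTP2-B in the annotation and moved little. It read −0.030, −0.12, −0.11 and −0.15 on ABA arrays 20, 24, 19 and 23. It read 0.18, 0.25, 0.039 and 0.10 on GA arrays 04, 05, 07 and 08. The groups did not overlap, with all ABA arrays below 0 and all GA arrays above it. LTP fell under ABA by 0.10 on the log2 scale (−0.10 ± 0.05, SD, n = 4; adjusted p = 0.0295) and rose by 0.14 ± 0.09 under GA (SD, n = 4; adjusted p = 0.00545). The fall under ABA did not pass without ABA array 20, 24, 19 or 23 or GA array 04 (adjusted p = 0.0705, 0.188, 0.0547, 0.0792 and 0.0515), nor without the dye term (adjusted p = 0.123). Within the Cy5 arrays neither value passed (adjusted p = 0.0732 for ABA and 0.282 for GA).

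LTPL1 read 0.62 and 0.60 on ABA arrays 20 and 24, and 0.074 and −0.030 on ABA arrays 19 and 23. It read 0.50, 0.44, 0.51 and −0.039 on GA arrays 04, 05, 07 and 08. Under ABA its high arrays were those with the treated sample in Cy3, and under GA array 08 stood apart from the other 3. LTPL1 rose by 0.32 ± 0.34 under ABA (SD, n = 4; adjusted p = 0.0134) and by 0.35 ± 0.26 under GA (SD, n = 4; adjusted p = 0.00641), with a dye term of −0.21 (adjusted p = 0.0217). In the Cy5 arrays alone neither rise passed (0.022, adjusted p = 0.898, for ABA and 0.23, adjusted p = 0.187, for GA). Without the dye term neither passed (adjusted p = 0.109 and 0.0619), and the rise under ABA also ended without ABA array 20 or 24 (adjusted p = 0.0663 and 0.0614). Without GA array 07 the rise under GA was 0.21 (adjusted p = 0.00124).

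**Figure D1:**
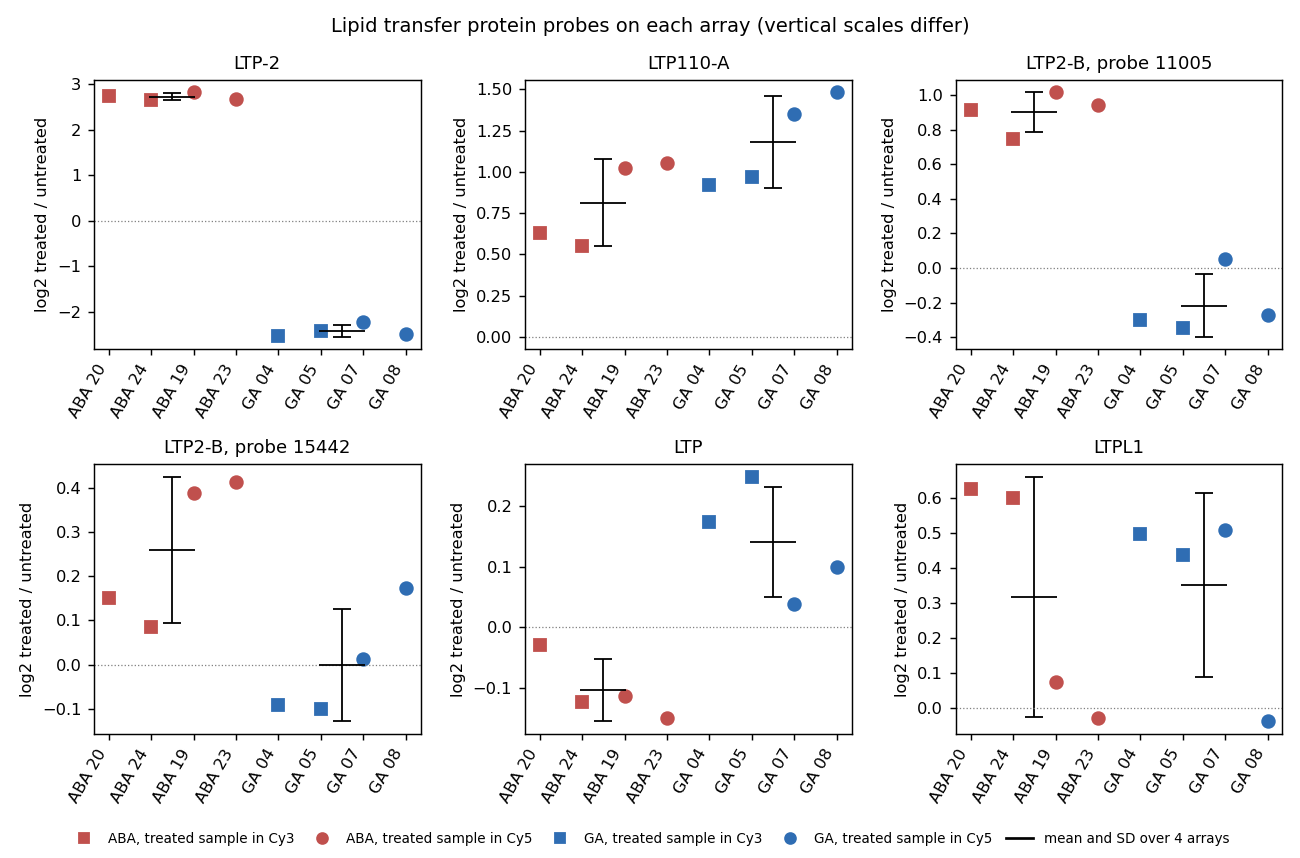
Log2 of treated over untreated (vertical axis, a scale of its own in each panel) on each of the 8 arrays (horizontal axis) for the 6 lipid transfer protein probes; red marks ABA arrays, blue GA arrays, squares the treated sample in Cy3 and circles in Cy5, and the black bars give the mean and SD over 4 arrays. LTP-2 lies between 2.66 and 2.83 under ABA and between −2.53 and −2.23 under GA, while LTP110-A is above 0 on all 8 arrays and LTPL1 divides by dye orientation under ABA.

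Under ABA 6 of 6 probes were called, 5 higher and 1 lower. Of all probes tested 41.8 percent were called under ABA (18.0 percent up and 23.7 percent down). Under GA 5 of 6 were called, 3 higher and 2 lower, where 49.0 percent of all probes were called (26.2 percent up and 22.8 percent down). With a call that also asked for a 2-fold change, LTP-2 alone of the 6 passed under ABA, against 1.36 percent of all probes, and LTP-2 and LTP110-A passed under GA, against 2.04 percent. This count rests on the log base, since with the deposited values read as log2 0 of 6 reached 2-fold under either hormone, against 3 of all probes under ABA and 1 under GA. The median of the 6 probes was 0.57 under ABA and 0.070 under GA, while that of all probes was −0.0046 and −0.0050. The shifts of LTP (−0.10 and 0.14) were smaller than the median size among all called probes, which was 0.21 for ABA and 0.25 for GA.

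In the order of their ABA response, the probes ran LTP-2, LTP2-B (probe 11005), LTP110-A, LTPL1, LTP2-B (probe 15442) and LTP. LTP-2 and LTP did not overlap on any array with their neighbour in this order, while the 4 probes between them overlapped each with the next. In the order of their GA response, LTP110-A was highest and LTP-2 lowest, both without overlap with their neighbour, and LTPL1, LTP, LTP2-B (probe 15442) and LTP2-B (probe 11005) overlapped each with the next.

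The direct contrast, ABA minus GA, asked whether a gene answered the hormones differently. LTP-2 differed by 5.14 (95% interval 4.99 to 5.29, adjusted p = 7.12e-11), which held rank 6 by size among all probes. This size rests on the direction taken for the GA arrays, and with them alone turned it was 0.32 (adjusted p = 0.0195). Probe 11005 of LTP2-B differed by 1.12 (0.95 to 1.28, adjusted p = 1.81e-06) and probe 15442 by 0.26 (0.15 to 0.37, adjusted p = 0.00195). With the GA arrays turned these contrasts were 0.69 (adjusted p = 0.00208) and 0.26 (adjusted p = 0.0961). LTP110-A was lower under ABA than under GA (−0.37, interval −0.47 to −0.26, adjusted p = 1.54e-04), and so was LTP (−0.24, interval −0.35 to −0.14, adjusted p = 0.00181). No difference was detected for LTPL1 (−0.033, interval −0.30 to 0.23, adjusted p = 0.832), an interval that leaves room for differences of either sign about as large as its rise under either hormone. Thus 5 of 6 probes passed, 3 higher and 2 lower under ABA, where 50.0 percent of all probes passed (22.7 percent higher and 27.3 percent lower). Of these, 2 of 6 were at least 2-fold apart, LTP-2 and probe 11005, against 4.61 percent of all probes. With the GA arrays turned 4 of 6 passed, all higher under ABA, where 5379 of the 17782 probes passed. LTP110-A alone was then at least 2-fold apart (1.99), against 382 of the 17782 probes. In this turned fit the dye term was not turned with the GA values, so dye bias shared by the hormones stayed in the spread. The sizes with GA turned do not depend on this, but the adjusted p-values and the counts of calls do.

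The contrast of LTP110-A needs its dye term. Over all arrays its groups overlapped, while within Cy3 and within Cy5 both GA arrays lay above both ABA arrays. The contrast was −0.35 in the Cy3 arrays (adjusted p = 0.00172) and −0.38 in the Cy5 arrays (adjusted p = 0.0131). It did not pass in the fit without a dye term (adjusted p = 0.118), and it shrank to −0.16 with quantile normalization (adjusted p = 0.0388). The contrast of probe 15442 also did not pass without the dye term (adjusted p = 0.0650). A dye effect was called for 42.6 percent of all probes and for 3 of the 6 (LTPL1, LTP110-A and probe 15442).

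The directions under both hormones differed among the probes. LTP-2 and probe 11005 of LTP2-B were called up under ABA and down under GA (2 of 6, against 5.85 percent of all probes). LTP110-A and LTPL1 were called up under both (2 of 6, against 3.63 percent), and LTP was down under ABA and up under GA. Probe 15442 of LTP2-B was called up under ABA and not called under GA. In all, 5 of 6 were called under both hormones, against 26.0 percent of all probes. The ABA and GA arrays did not overlap for 3 of 6 (LTP-2, probe 11005 and LTP), against 36.1 percent of all probes. If the GA arrays were turned, LTP-2 would have risen under both hormones and LTP110-A would have risen under ABA alone and fallen under GA.

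**Figure D2:**
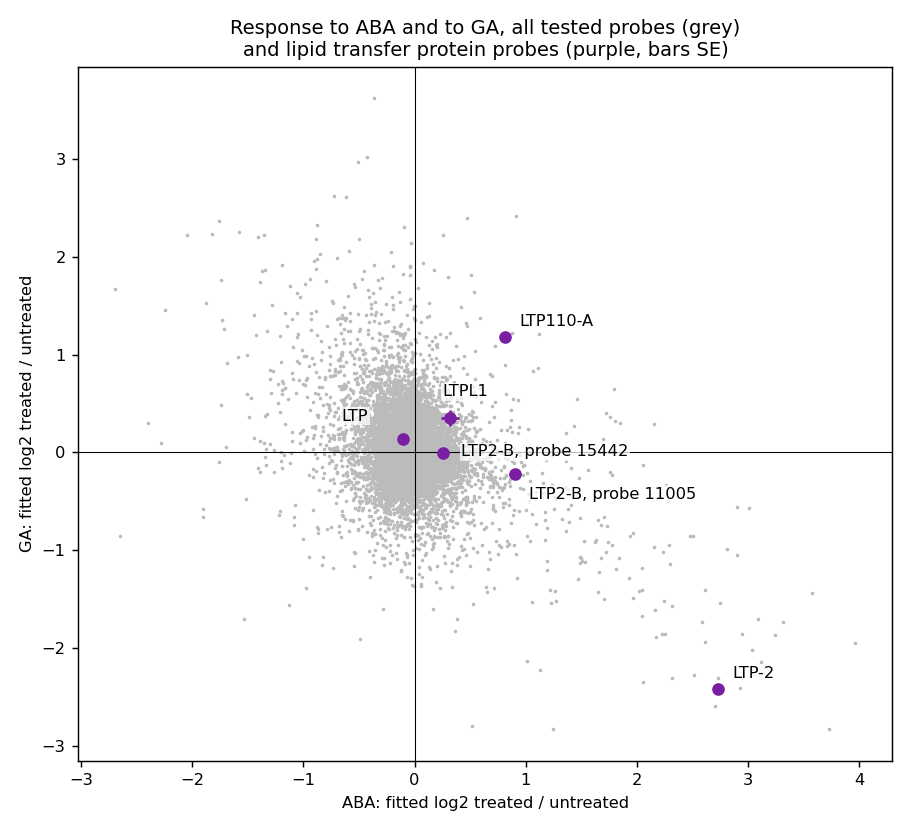
Fitted log2 of treated over untreated under ABA (horizontal axis) and under GA (vertical axis) for the 17782 probes tested (grey) and the 6 lipid transfer protein probes (purple, bars are SE). LTP-2 lies at the lower right edge (2.73 and −2.41), LTP110-A lies at the upper right (0.81 and 1.18), where few probes are found, and LTP and LTPL1 lie within the main cloud.

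Most genes beside the LTPs in the annotation had small values. Within 5 genes on either side of an LTP gene, 20 probes of 18 other genes were measured. Under ABA 7 of them were called higher and 2 lower, where 18.0 percent of all probes were called up and 23.7 percent down. Under GA 5 were called higher and none lower, where 26.2 percent of all probes were called up and 22.8 percent down. Values of the 20 probes ran from −0.80 to 0.30 under ABA and from −0.092 to 0.94 under GA. The values farthest from 0 were those of OsTPP9 beside LTPL1 under GA (0.94) and of a probe of LOC4349605 near LTP110-A under ABA (−0.80), whose other probe stood at 0.30. The gene next to LTP-2, LOC4331361, was at 7.12e-04 under ABA (adjusted p = 0.992) and rose by 0.17 under GA (adjusted p = 0.0158). Beside LTP2-B, LOC4351315 was at 0.056 under ABA and 0.048 under GA and passed under neither (adjusted p = 0.786 and 0.813). LTP2-B and LTP are neighbours and moved in opposite directions under ABA, at 0.90 by probe 11005 and 0.26 by probe 15442 against −0.10. LTP110-A, LTP2-A, LTP2-B and LTP are related genes of the same family, and without probe sequences, which were not used here, the signal of near-identical copies cannot be told apart.

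The 5 profiles nearest to that of LTP-2 were chosen on its own values. That they were high under ABA and low under GA follows largely from this choice. Of 2463 named probes with a value on all 8 arrays, those nearest to LTP-2 by the Euclidean distance of their 8 log2 ratios were R1C-Prx (distance 2.01), PM1 (OsPM19L1; 2.19), EM (3.12), PDHE1-A (3.19) and MFT2 (3.37), against a median distance of 7.30. R1C-Prx is a peroxiredoxin with a single conserved cysteine, of a kind found in seeds, and stood at 2.16 ± 0.13 under ABA and −1.61 ± 0.16 under GA (SD, n = 4). PM1, which belongs to the AWPM-19 family of membrane proteins, stood at 3.73 ± 0.09 and −2.83 ± 0.11. EM is a late embryogenesis abundant protein of the seed embryo, and stood at 1.25 ± 0.21 and −2.83 ± 0.14. PDHE1-A, named for a subunit of pyruvate dehydrogenase, stood at 2.29 ± 0.04 and −0.94 ± 0.41, and MFT2, of the MOTHER OF FT AND TFL1 family, at 1.47 ± 0.11 and −1.29 ± 0.18. All 5 were above 0 on every ABA array and below 0 on every GA array, which the choice makes likely. The nearest LTP, probe 11005 of LTP2-B, was at a distance of 5.72 from LTP-2. It was the nearest of only a few LTP probes, so its distance is not comparable with the smallest of 2463.

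The nearest match of LTP110-A lay at a smaller distance than that of LTP-2. Such distances grow with the size of the response, so they are not comparable between these members (median distance 7.30 for LTP-2). The catalase gene CAT-A, whose enzyme breaks down hydrogen peroxide, lay at a distance of 0.283 by probe 10189, with 0.76, 0.72, 1.001 and 1.02 on ABA arrays 20, 24, 19 and 23. On GA arrays 04, 05, 07 and 08 this probe read 1.06, 0.94, 1.45 and 1.45. Like LTP110-A, to which it was matched on these values, it was higher on both Cy5 arrays than on both Cy3 arrays of either hormone. The other probe of CAT-A was at 1.14, and read 0.43 under ABA and 0.87 under GA. PLA2-III, a phospholipase gene (0.755), the chitinase-like inhibitor gene Chib3H-a (1.17) and a gene annotated only as peroxidase (probe 21611; 1.33) followed. PLA2-III stood at 0.72 ± 0.02 under ABA and 1.09 ± 0.04 under GA (SD, n = 4), with no such split by dye. The median distance was 2.98, and the nearest LTP, LTPL1, was at 2.36.

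**Figure D3:**
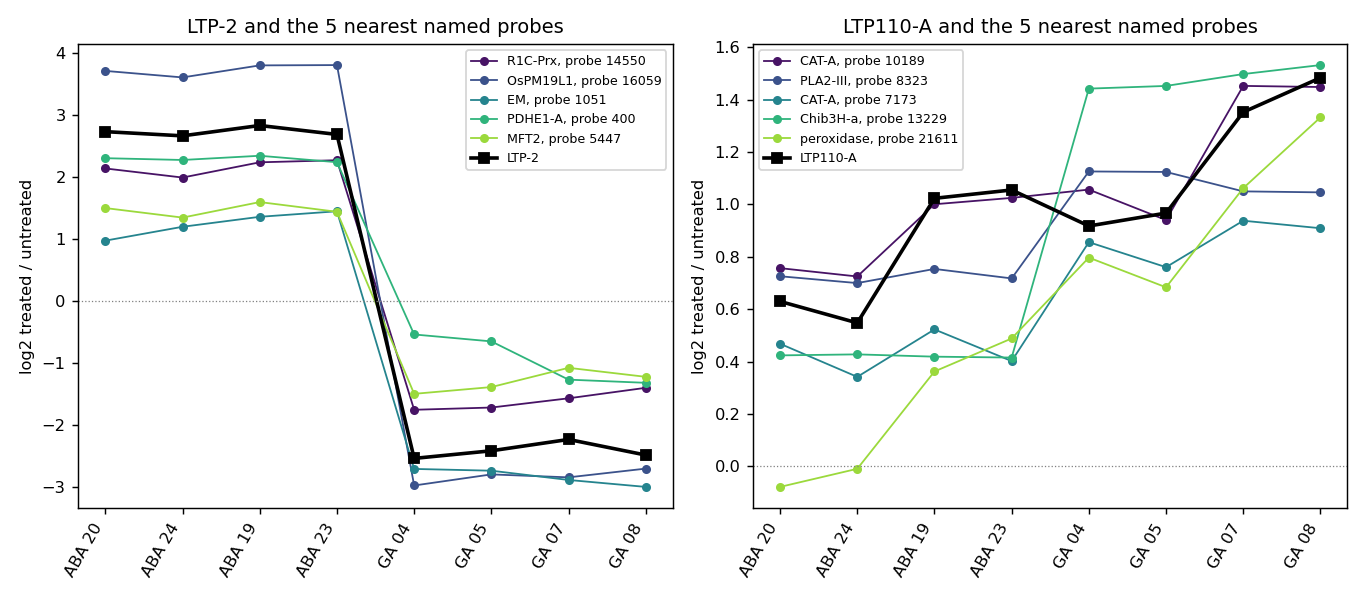
Log2 of treated over untreated (vertical axis) on each of the 8 arrays (horizontal axis) for LTP-2 (left) and LTP110-A (right), in black, and for the 5 named probes nearest to each in Euclidean distance, in colour; lines join the arrays of a probe only to guide the eye. The neighbours of LTP-2 are above 0 on all ABA arrays and below 0 on all GA arrays, largely through this choice by distance. Probe 10189 of CAT-A follows LTP110-A at a distance of 0.283.

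Related genes were counted in lists matched on their symbols. Beside every count below, 18.0 percent of all probes were called up and 23.7 percent down under ABA. Under GA these shares were 26.2 and 22.8 percent. Of 3 other proteins of the eight-cysteine family outside the LTP name, the anther lipid transfer gene C6 rose under ABA (0.33 ± 0.10, adjusted p = 2.35e-04), and C6 and C4, also an anther gene, were lower under GA (−0.12 ± 0.24, adjusted p = 0.0361, and −0.21 ± 0.08, adjusted p = 8.26e-04). C4 stood at 0.083 under ABA and did not pass (adjusted p = 0.0857; 0.0420 without GA array 07), and the seed allergen gene RA14 passed under neither hormone. The value of C6 under GA did not pass without the dye term, ABA array 24 or GA array 04, 05 or 07 (adjusted p = 0.289, 0.0548, 0.174, 0.156 and 0.0677). In the Cy5 arrays alone it was 0.078.

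Among genes that make or modify fatty acids, 4 of 5 probes rose under ABA and none fell, with a median of 0.24. Of all probes 18.0 percent were called up under ABA and 22.8 percent down under GA. SSI2, a stearoyl-ACP desaturase that introduces the first double bond into plastid fatty acids, rose by 1.36 ± 0.04 on probe 21125 and by 0.74 ± 0.09 on probe 16532 (adjusted p = 3.86e-09 and 1.01e-06). Under GA both SSI2 probes fell (−0.80 ± 0.08 and −0.41 ± 0.08, adjusted p = 6.94e-08 and 3.24e-05) and the other 3 did not pass. SSI2 thus shared the directions of LTP-2 at a smaller size. Of the acyl-CoA binding proteins, which carry activated fatty acids inside the cell, ACBP6 rose under ABA (0.31 ± 0.04, adjusted p = 1.30e-04). ACBP6 was at 0.048 under GA, and ACBP4 was at 0.074 under ABA and −0.13 under GA. None of these 3 values passed (adjusted p = 0.302, 0.321 and 0.0710), but without GA array 07 both GA values did (0.090 for ACBP6 and −0.22 for ACBP4, adjusted p = 0.0305 and 5.73e-04).

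The list meant for wax, cutin and suberin held KCS20, which elongates very long fatty acids, and otherwise ABCG transporters, a family of membrane pumps of which some export cuticle and suberin lipids. Of its 14 probes 3 rose and 3 fell under ABA, and 5 rose and 5 fell under GA, with medians of −0.0074 and 0.068. Without the dye term 1 rose and 2 fell under ABA. Of all probes 41.8 percent were called under ABA and 49.0 percent under GA with the dye term. KCS20 fell under both hormones (−0.31 ± 0.09 and −0.47 ± 0.07, adjusted p = 5.27e-05 and 1.92e-06). ABCG37 rose under both (0.35 ± 0.03 and 0.29 ± 0.06, adjusted p = 2.84e-05 and 5.73e-05). ABCG36 rose slightly under ABA (0.12 ± 0.06, adjusted p = 0.0224) and fell under GA (−0.63 ± 0.06, adjusted p = 6.81e-07); its ABA value did not pass without ABA array 20, 24 or 23 (adjusted p = 0.0910, 0.0870 and 0.110) or the dye term (adjusted p = 0.0533). ABCG42 had probes of opposite sign, at 0.53 and −0.45 under GA and at 0.10 and −0.13 under ABA. Its positive ABA value did not pass without ABA array 24, 19 or 23 (adjusted p = 0.0739, 0.0540 and 0.0694) or the dye term (adjusted p = 0.0849).

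Of 8 probes for phospholipases and lipid kinases, 2 rose and 1 fell under ABA, and 2 rose and 2 fell under GA. Without the dye term 1 rose under ABA and 0 fell. With the dye term the list was near the 41.8 percent of all probes called under ABA and 49.0 percent under GA. PLA2-III rose under both, as given above (adjusted p = 1.23e-07 and 7.76e-09). PIP5K, which makes a signalling phosphoinositide, stood at −0.10 ± 0.05 under ABA (adjusted p = 0.0472) and rose by 0.20 ± 0.07 under GA (adjusted p = 0.00118) on probe 14105, while its other probe passed under neither. Its ABA value did not pass without ABA array 20, 24, 19 or 23 or GA array 04 or 05 (adjusted p = 0.121, 0.276, 0.0950, 0.0514, 0.0637 and 0.0668), nor without the dye term (adjusted p = 0.106).

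Other pathogenesis-related genes, a class to which LTPs are counted, were mixed. Of 15 probes 6 rose and 1 fell under ABA, and 5 rose and 2 fell under GA, with medians of 0.080 and 0.061. With both directions pooled, the share called was near that of all probes, 41.8 percent under ABA and 49.0 percent under GA. By direction, the 6 higher and 1 lower under ABA stand beside 18.0 percent of all probes up and 23.7 percent down. The 5 higher and 2 lower under GA stand beside 26.2 and 22.8 percent. PBZ1, a protein of the PR-10 family, rose by 2.15 ± 0.05 under ABA and by 0.29 ± 0.09 under GA (adjusted p = 8.90e-10 and 2.01e-04). The chitinase gene chia4a rose by 0.79 ± 0.05 under ABA and fell under GA (−0.51 ± 0.08; adjusted p = 1.42e-07 and 1.43e-06), and so had the directions of LTP-2. Chib3H-a rose under both, by 0.42 ± 0.01 and 1.48 ± 0.04 (adjusted p = 3.22e-06 and 1.43e-09), and so had the directions of LTP110-A. The chitinase gene Cht10 rose under GA (0.66 ± 0.06, adjusted p = 2.44e-07) and stood at 0.080 under ABA (adjusted p = 0.0733; 0.0421 without GA array 07 and 0.0486 without GA array 08).

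In a list of 9 ABA-responsive maturation genes, 8 rose and 1 fell under ABA (median 1.01), and none rose and 7 fell under GA (median −1.52). PM1 and R1C-Prx, described above, belong to it (adjusted p = 6.71e-11 and 8.49e-10 under ABA, 4.67e-10 and 4.08e-09 under GA). This list was chosen with earlier results of these data known, so its counts are a description. Beside them, 18.0 percent of all probes were called up under ABA and 22.8 percent down under GA.

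**Figure D4:**
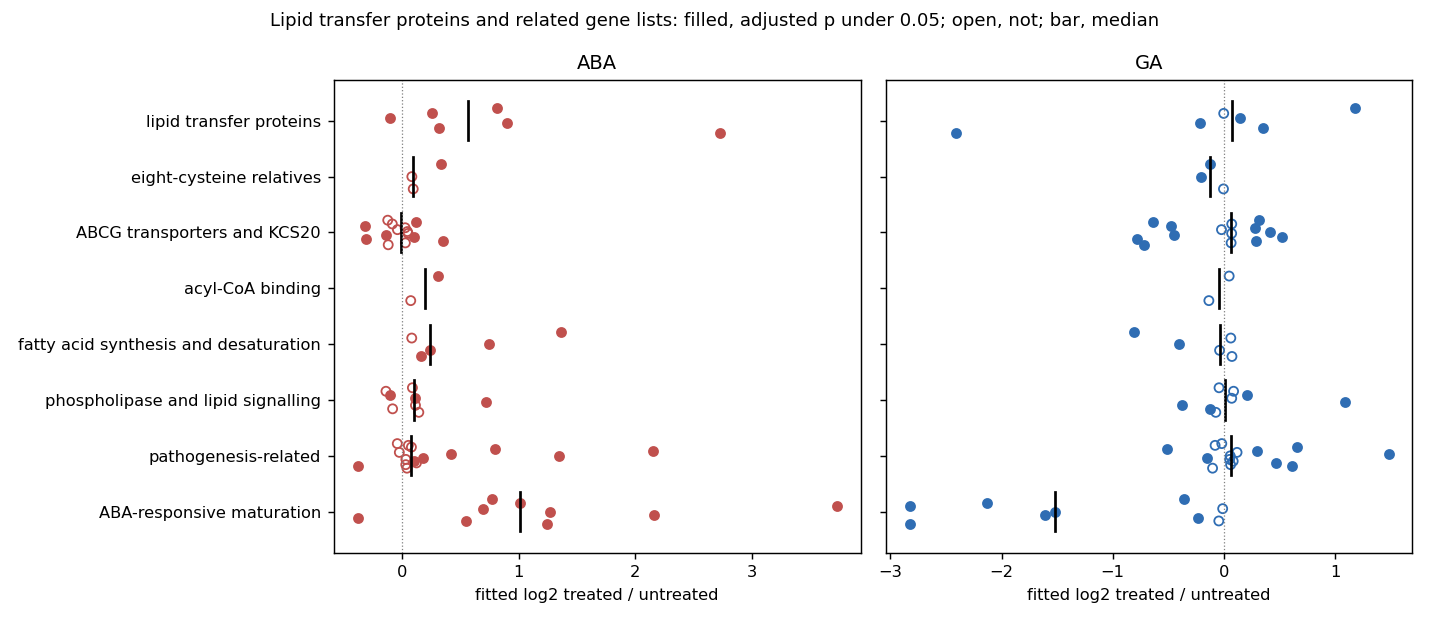
Fitted log2 of treated over untreated (horizontal axis) under ABA (left) and GA (right) for the probes of the lipid transfer proteins and of 7 related gene lists (rows); filled points had an adjusted p under 0.05, open points did not, and the vertical bar is the median of the row. The medians of the lipid transfer proteins are 0.57 and 0.070, those of the maturation genes 1.01 and −1.52, and those of the pathogenesis-related genes 0.080 and 0.061.

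Some markers of other cell types also passed. Of 9 probes of shoot and leaf genes 5 rose under ABA (median 0.15, range −0.013 to 0.48) and 4 fell under GA (median −0.067, range −0.82 to 0.15), with PSBW, of photosystem II, at 0.48 and −0.82 and RCABP69, a chlorophyll-binding protein, at 0.29 and −0.16. These shares, 5 of 9 and 4 of 9, stand beside 18.0 percent of all probes called up under ABA and 22.8 percent called down under GA. In either direction 41.8 and 49.0 percent of all probes were called. Without the dye term 2 of the 9 rose under ABA and 2 fell under GA. The fall of RCABP69 did not pass without the dye term (adjusted p = 0.184). The root marker OsCASP1, of the endodermis, was at −0.040 under ABA, which did not pass (adjusted p = 0.556), and rose by 1.81 under GA. The embryo markers EM and VP1 both rose under ABA (EM at 1.25, VP1 at 0.18) and fell under GA (−2.83 and −0.86). The ABA value of VP1 was −0.028 in the Cy3 arrays and did not pass without the dye term (adjusted p = 0.217). The meristem markers HOS9 (OSH71) and OSH1 fell under ABA (−0.19 and −0.30) and rose under GA (0.74 and 0.27), where OSH1 did not pass without GA array 08 (adjusted p = 0.0537). Of 3 tapetum markers C6 alone passed, with the limits given above, while TDR was at 0.045 and −0.029 and RTS at −0.043 and −0.013. The part of such cells in the values of LTP-2 and LTP110-A was not tested.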

How the data were processed

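The deposited tables hold, for each feature of a rice oligonucleotide array, a log10 ratio of the dyes; per the labels, the authors normalized it by LOWESS. The base is not stated and is taken as log10, the array maker's convention. Read as log2, the ratios of LTP-2 would be 1.77-fold up under ABA and 1.65-fold down under GA, with the same p-values. Ratios were multiplied by 3.32 to give log2 values and turned in sign where the treated sample was in Cy3. Exact zeros (92 to 243 per array) were treated as missing, and 3 values per hormone were required. Of 22575 features 17788 were listed with a gene in GEO's platform annotation, 17769 of them with 1 gene and 19 with several, and 17782 were tested; 2471 probes have a named gene, by the RefSeq table of assembly ASM3414082v1. limma 3.58.1 (R 4.3.3) fitted a mean for each hormone and a shared dye term to the 8 arrays (5 residual and 3.93 prior degrees of freedom), with Benjamini-Hochberg adjustment over all 17782 probes. It was tested on simulated data. The number of arrays limits the precision.

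Members and lists were chosen with earlier results of these data known. Lists were matched on symbols and synonyms, and 31 matches to other proteins were removed on their names. Genes named with values are all LTP probes, the 2 probes of each list with the smallest adjusted p for each hormone, the 5 nearest profiles of LTP-2 and LTP110-A, and markers; other probes named beside them were chosen after their values were seen. Alternatives covered the dye term, normalization, moderation, zeros, filters, thresholds, gene means, the GA direction and each array left out.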

Additional observations from a re-analysis of the deposited data

Results flagged for a closer look

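LTPL1 on GA array 08 stood at −0.039, apart from 0.44 to 0.51 on the other 3 GA arrays, and its gap was 0.869 of the range. It was the only far array in 12 groups of 4 arrays of the LTP probes. Chance gives about 1 in 20 for each group, so 1 among 12 groups is not unusual. The responses to ABA and GA differed by the direct contrast for LTP-2 (5.14), LTP2-B by probe 11005 (1.12) and by probe 15442 (0.26), LTP110-A (−0.37) and LTP (−0.24). These sizes rest on the direction taken for GA. With the GA arrays turned they were 0.32 for LTP-2, 0.69 for probe 11005, 0.26 for probe 15442 (adjusted p = 0.0961), 1.99 for LTP110-A and 0.037 for LTP (adjusted p = 0.706). These 2 adjusted p-values did not pass, but they come from a fit whose dye term was not turned with the GA values. They therefore do not show that the direction alone ended a call.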

How the results depend on the processing

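Of 474 values of the LTP probes under an alternative, 407 kept their direction and their side of the threshold, 51 no longer passed, 2 newly passed and 14 changed sign. Of these 14, 8 passed neither before nor after, and they belong to the LTPL1 contrast and to probe 15442 under GA. Of 1612 values of the other named genes these numbers were 1446, 136, 21 and 9. Part of this stability was fixed in advance, so the counts do not measure robustness. Reading the values as log2 keeps every adjusted p-value, and a stricter threshold or a 2-fold minimum keeps every sign. Leaving out an array of either hormone does not change the LTP estimates for the other hormone. Without a dye term 3 of 6 LTP probes passed for ABA minus GA, against 5953 of all probes. With a 2-fold minimum 1 passed under ABA, 2 under GA and 2 for the contrast, against 242, 362 and 820 of all probes. In the Cy5 arrays alone 2 passed under GA, against 7122 of all probes. Leaving out each array in turn gave 4 to 6 under ABA, 5 to 5 under GA and 5 to 5 for the contrast. Over all probes these fits called 5540 to 8858 under ABA, 7239 to 9662 under GA and 7560 to 9913 for the contrast. With the GA arrays turned, the contrast became 0.32 for LTP-2, 0.69 for probe 11005 and 0.26 for probe 15442 of LTP2-B. It became 0.67 for LTPL1, 0.037 for LTP and 1.99 for LTP110-A. In that fit 1 LTP probe was at least 2-fold apart, against 382 of all probes. With the values read as log2, 0 LTP probes were 2-fold changed under ABA, 0 under GA and 1 for the contrast. Over all probes these counts were 3, 1 and 53. In the Cy3 arrays alone the LTPL1 contrast was 0.15, and under ABA VP1 (OsVP1) was −0.028 and peroxidase −0.044. In the Cy5 arrays alone C6 was 0.078 and RCABP69 0.0018 under GA. With gene means ABCG42 was −0.017 under ABA. Without a dye term 7 of 24 list counts moved by over 1.5 times. The causes were not tested. Over all probes, calls under ABA went from 7430 to 4443 without a dye term and to 11541 in the Cy3 arrays alone. Those for the contrast went from 8889 to 5953 without a dye term and to 5379 with the GA arrays turned. In the turned fit the dye term was not turned with the GA values, so its count is not on the same model as 8889. The Cy3-only, Cy5-only, log2-base and turned 2-fold alternatives were chosen after seeing the data. Each array pairs treated with untreated callus, and the fit used these ratios. ABA arrays were not paired with GA arrays, because the array numbers of the hormones do not overlap. Ratios without intensities leave signal over background unknown.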
